A study of Mus musculus with 6 samples.

Results

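Interleukin-10 and the interleukin-6 family were followed through the leukocytes of the mouse soleus, a slow postural muscle of the calf, by means of 9 genes. The members were chosen by symbol among the 31053 genes of the count tables, with earlier results of these data known. They were the ligands Il10, Il6 and Osm, the receptor chains Il10ra, Il10rb, Il6ra and Il6st, the transcription factor Stat3 and the feedback inhibitor Socs3. All 9 were detected in the macrophage-like cells of every library. Single-cell RNA-seq was carried out on CD45+ DAPI− cells (live cells carrying the common leukocyte antigen) that had been sorted from pooled solei of male C57BL/6 mice. Old mice were 20 to 22 months of age and young mice were 4 to 5 months of age. According to the paper, old and young mice came from different suppliers, so age and supplier cannot be told apart. Each age contributed 3 libraries: an ambulatory control, hindlimb unloading (HU, in which the hind limbs bear no weight) and day 4 of reloading (reload). Every age and treatment was therefore represented by 1 library of pooled animals. According to the labels, HU and reload libraries were sequenced together and the control libraries in a separate run. An effect of the run and one of the treatment cannot be told apart wherever control is involved, and control levels are given as values only. The number that opens each title also differs between all 3 treatments and is shared by both ages of a treatment. What it stands for is not given in the sources used here, and if it marks a batch of preparation, batch and treatment cannot be told apart for reload against HU either.

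IL-10 is an anti-inflammatory cytokine that binds a receptor made of IL10RA, which is specific for it, and IL10RB, which related cytokines share. IL-6 binds IL6RA, oncostatin M (the product of Osm) binds its own receptor OSMR, and both complexes signal through the common chain gp130, the product of Il6st. Both receptor systems act through JAK kinases and phosphorylated STAT3, and STAT3 induces Socs3, whose product blocks gp130 but not the IL-10 receptor. In muscle, macrophages are known as a source of these cytokines during repair.

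Cells were assigned one by one to 11 classes when at least 3 of the 10 markers of a class were detected and it led the next class by at least 2. No member was a marker, and no class had a marker of another class among its 10 leading genes. A further 2069 kept cells (16.93%, with 18.31% of all UMIs) reached no class, and they enter no class level or test. The leading gene of these unassigned cells was Cd209a, a marker of the dendritic cell-like class, so that class may not hold all such cells. Classes carry the names of their markers, so that "macrophages" below stands for macrophage-like cells. Of 15467 barcodes, 12220 were kept, with a median of 2539 to 7883 UMIs (unique molecular identifiers) per library, and 4892 of these were macrophages (383 to 1420 per library). Barcodes over the limit of 10% mitochondrial UMIs differed between libraries and ages. They were 9.459% in old and 4.119% in young control, 9.605% in old and 27.52% in young HU, and 17.4% in old and 33.27% in young reload. The sort also held 549 endothelial-like and 179 fibroblast-like cells, which are not leukocytes, and old HU and young HU held 188 and 324 of the endothelial-like cells. The control libraries shared 40 kept barcodes (2.53% of young control, with median totals of 760.5 UMIs in old and 812.5 UMIs in young control), against 3 to 9 in other pairs of libraries, and the tests in macrophages and the age ratios were repeated without them. Levels are given as CPM, the UMIs of a gene divided by all UMIs of that class in that library and scaled to the usual fixed total. Intervals are exact 95% intervals for counting error only and do not cover variation between cells or animals.

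In the mm10 genome 3 members lie on chromosome 11, with Osm at chr11:4236420-4241026 on the plus strand, Stat3 at chr11:100885098-100939540 on the minus strand and Socs3 at chr11:117966079-117970047 on the minus strand. Il10 lies at chr1:131019845-131024974 and Il6 at chr5:30013114-30019981, both on the plus strand. The receptor genes are Il10ra at chr9:45253837-45269149 (minus), Il10rb at chr16:91406164-91425834 (plus), Il6ra at chr3:89864059-89913196 (minus) and Il6st at chr13:112464070-112510086 (plus). A RefSeq promoter on GRCm38.p6 was matched for 5 of the 9 members, and that of Socs3 is shown because this STAT3 target gave the clearest difference between treatments outside macrophages. The 250 bases before and 50 after the start of each gene were searched on both strands for TTCNNNGAA, the palindrome that STAT dimers recognise, and capitals mark the match. The Socs3 promoter (chr11:117969317-117969616, minus strand) holds the STAT palindrome 154 bases before the RefSeq start, a sequence present in 8.30% of 32851 promoters of this length. For Socs3 the RefSeq start lies inside the gene interval given above, downstream of its 5′ end, so the annotations differ and the window is no promoter of the longer gene model. For Il6, Il6ra, Il6st and Stat3 the starts are the same, and their windows do not hold these letters.
Socs3: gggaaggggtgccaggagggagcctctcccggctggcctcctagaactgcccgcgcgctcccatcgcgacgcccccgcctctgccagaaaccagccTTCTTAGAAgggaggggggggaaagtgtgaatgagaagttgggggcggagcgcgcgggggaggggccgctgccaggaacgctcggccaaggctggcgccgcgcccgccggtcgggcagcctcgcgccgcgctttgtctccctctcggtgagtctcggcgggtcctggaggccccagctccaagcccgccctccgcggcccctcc

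Il10 was a macrophage transcript in these muscles. Of its 3629 UMIs in kept cells, 3413 (94.05%) lay in macrophages, which were 40.03% of the cells and gave 48.34% of all UMIs. Il10 reached 61.5 ± 62.1 CPM in macrophages (SD, n = 6 libraries), and no other class exceeded a mean of 4.90 CPM. Among type 2 innate lymphoid cell-like, endothelial-like and fibroblast-like cells it had 0 UMIs. The 15 UMIs in neutrophil-like cells included 10 from a single cell. Unassigned cells held 177 Il10 UMIs (4.877%). Macrophages with an Il10 UMI were few even where the level was highest: after every cell was thinned to 1500 UMIs, Il10 was found in 12.06% of macrophages in old reload and 10.97% in young reload (24.96% and 26.55% without thinning). As a background, Il10 was found in 0 of 354 thinned endothelial-like cells, which allows a share of up to 0.8475%, and in 0 of 241 thinned NK-like cells (up to 1.245%), although NK cells can make IL-10. Without thinning, 17.38% of macrophages, 0% of endothelial-like cells and 0.3937% of NK-like cells (1 UMI) had an Il10 UMI, at median depths of 6119, 2025 and 3214 UMIs per cell. The 1% of macrophages richest in Il10 held 26.99% of its UMIs in that class, and the highest cell had 33.

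**Figure D1:**
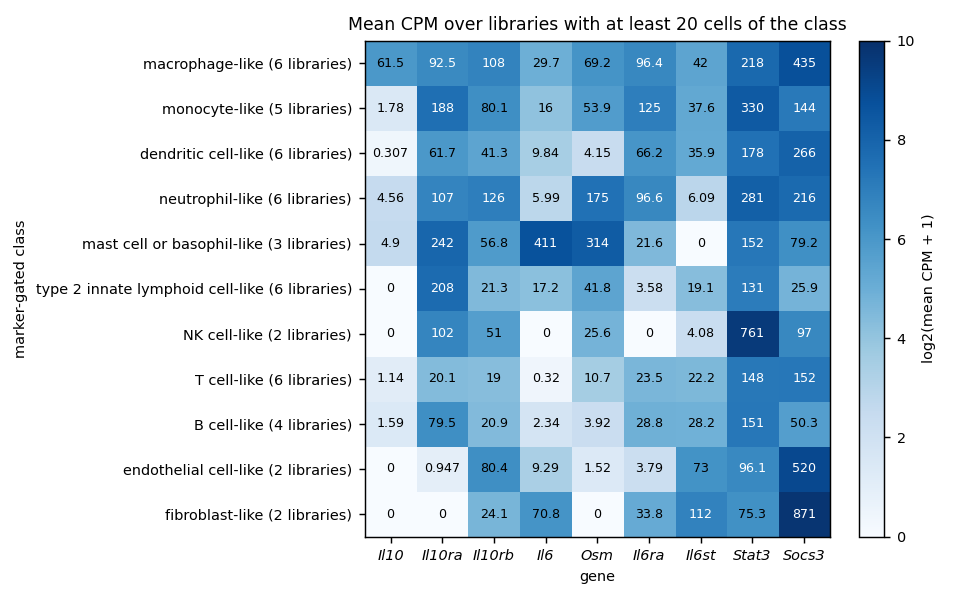
Mean CPM of the 9 members (columns) in 11 marker-gated classes (rows), over libraries with at least 20 cells of the class, with colour on the log2(mean CPM + 1) scale. Il10 stands at 61.5 in macrophages and at most 4.90 elsewhere, and Osm and Il6 are highest in the mast cell or basophil-like class.

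Macrophages were compared with the other classes on UMI sums per class and library with edgeR's quasi-likelihood test, with the library as a block and Benjamini-Hochberg adjustment over all genes tested. Against the mean of the other classes, 8 of the 9 members were higher in macrophages, where 35.5% of the 9472 genes tested were higher. That contrast averages log levels, so classes with no UMI of a gene weigh heavily in it and the fitted size is not a bound. Against all other assigned cells pooled within each library, a contrast chosen after seeing the data, 5 of the 9 members were higher, where 16.9% of genes were. These were Il10 (log2 difference 5.23, SE 0.52, edgeR adjusted p = 0.000127), Socs3 (1.32, SE 0.21, edgeR adjusted p = 0.00165), Il10rb (1.06, SE 0.15, edgeR adjusted p = 0.000871), Il6 (1.17, SE 0.35, edgeR adjusted p = 0.0308) and Il6ra (0.93, SE 0.30, edgeR adjusted p = 0.0398). Il10ra, Osm and Il6st passed only the first contrast, with pooled differences of 0.23, 0.81 and 0.25 (edgeR adjusted p = 0.576, 0.229 and 0.443), and Stat3 passed neither.

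Within macrophages, Il10 was at 28.6 CPM in old control (78 UMIs) and 52.4 CPM in young control (259 UMIs). In HU libraries it was at 8.11 CPM in old (25 UMIs) and 3.59 CPM in young macrophages (8 UMIs), and in reload libraries at 147 CPM in old (1441 UMIs) and 129 CPM in young macrophages (1602 UMIs). Both reload libraries thus lay above every other library, and both HU libraries lay below every other. How many of all genes have this order was not counted. Reload was set against HU, which shared a sequencing run but not a title number, with age as a block and 2 residual degrees of freedom. Il10 was higher in reload by 4.53 on the log2 scale (SE 0.51, edgeR adjusted p = 0.0326). It was 1 of 2 members called in this comparison, with Osm, where 2.51% of the 10162 genes tested were called higher and 2.83% lower. Without young reload neither Il10 (4.69, edgeR adjusted p = 0.143) nor Osm (2.83, edgeR adjusted p = 0.151) passed, and 0 genes did (1277 at an unadjusted p under 0.05). Other measures of macrophages differed between the same libraries: the resident macrophage genes Lyve1, Vsig4, Cd163 and Timd4 were lower in reload (log2 -2.73, -2.66, -2.30 and -3.58), and Ccr2, the receptor that brings monocytes into tissue, was higher (1.76). Among these macrophages, cells with at least 2 of 5 resident genes and cells with none were compared within each library, and Il10 differed by 0.13 ± 0.73 on the log2 scale (SD, n = 6; none minus resident, higher in 2 of 6; exact sign-flip p = 0.6875, and 0.8839 adjusted over the 9 members compared).

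**Figure D2:**
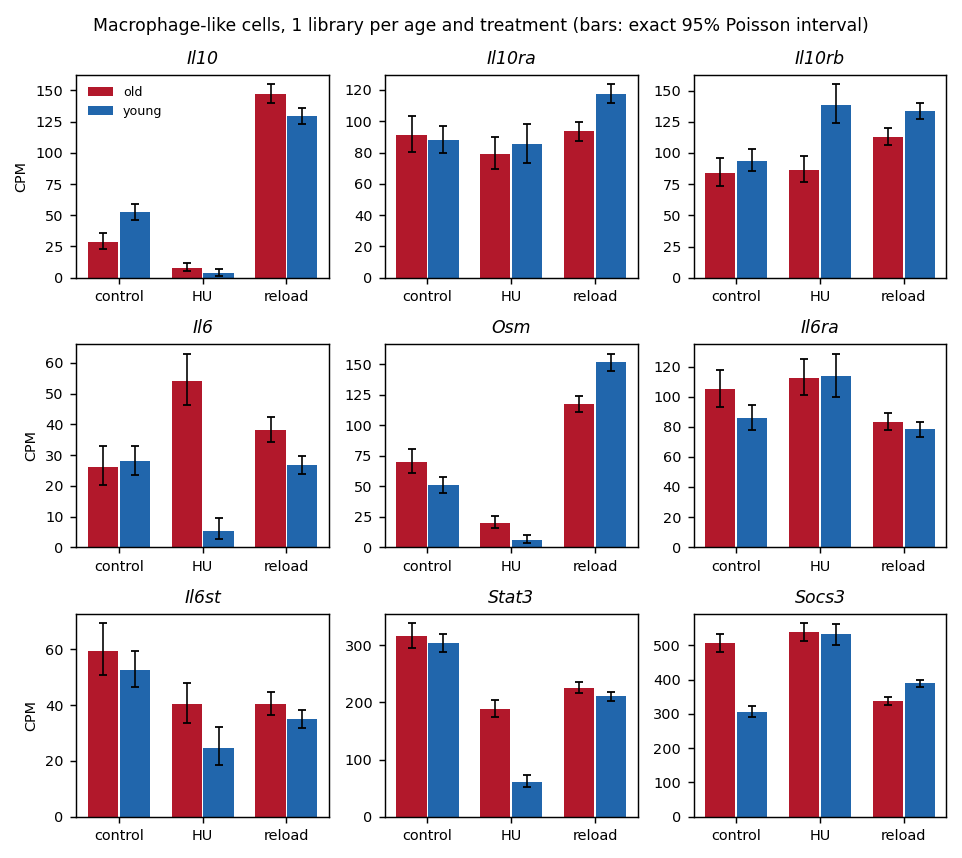
Level of each member in macrophages in CPM, with 1 bar per library (old red, young blue) and exact 95% Poisson intervals, by treatment. Il10 and Osm are lowest in both HU libraries and highest in both reload libraries, and Stat3 is lowest in young HU at 61.5 CPM.

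The chains of the IL-10 receptor were distributed differently from the ligand. Il10ra, the ligand-binding chain, averaged 242 ± 103 CPM in mast cell or basophil-like cells (SD, n = 3), 208 ± 64.8 CPM in type 2 innate lymphoid cell-like cells (n = 6) and 188 ± 35.9 CPM in monocyte-like cells (n = 5). Each n counts the libraries with at least 20 cells of the class. By mean, macrophages were in place 6 with 92.5 ± 13.2 CPM (n = 6), below neutrophil-like and NK-like cells. NK-like cells were above macrophages in 1 of the 2 libraries compared. Against the pooled other classes Il10ra was higher in type 2 innate lymphoid cell-like cells (log2 difference 1.11, SE 0.21, edgeR adjusted p = 1.354e-05, where 11.8% of genes were higher) and in monocyte-like cells (1.10, SE 0.15, edgeR adjusted p = 8.637e-05, where 12% were higher). Mast cell or basophil-like cells, first by mean, did not pass this test for Il10ra. They were above type 2 innate lymphoid cell-like cells in 1 of 3 shared libraries (-0.11 ± 0.70 on the log2(CPM + 5) scale, SD). Il10ra was nearly absent outside leukocytes, with 1 UMI in fibroblast-like and 1 in endothelial-like cells. After thinning it was found in 13.55% of macrophages and in 0 of 152 fibroblast-like cells (up to 1.974%). Without thinning the shares were 40.76% of macrophages and 0.5587% of fibroblast-like cells, at median depths of 6119 and 3192 UMIs.

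Il10rb was spread more evenly and also reached cells other than leukocytes. It averaged 126 ± 37.9 CPM in neutrophil-like cells, 108 ± 23.9 CPM in macrophages (SD, n = 6 each) and 80.4 ± 11.9 CPM in endothelial-like cells (n = 2), against 19.0 ± 10.0 CPM in T-like cells (n = 6). In macrophages Il10ra ranged from 79.1 CPM in old HU to 117.5 CPM in young reload, and Il10rb from 84.0 CPM in old control to 139 CPM in young HU. Neither chain passed the test of reload against HU (Il10ra 0.40, SE 0.20, edgeR adjusted p = 0.2465; Il10rb 0.21, SE 0.19, edgeR adjusted p = 0.5083). The Il10 level spanned 3.59 to 147 CPM over the same 6 libraries.

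Il6 had few UMIs (1761 in kept cells, 331 of them in unassigned cells) and an uneven distribution. The mast cell or basophil-like class had the highest mean, 411 ± 546 CPM (SD, n = 3), with fibroblast-like cells at 70.8 ± 52.7 CPM (n = 2) and macrophages at 29.7 ± 16.0 CPM (n = 6). Against pooled other classes it was higher in mast cell or basophil-like cells (log2 difference 2.89, SE 0.63, edgeR adjusted p = 0.000134, where 2.94% of genes were higher) and in fibroblast-like cells (1.57, SE 0.39, edgeR adjusted p = 0.008891, where 11.2% were). In T-like cells Il6 had 1 UMI among 1073 cells. After thinning it was found in 3.421% of macrophages and in 0 of 971 T-like cells (up to 0.309%). Without thinning the shares were 9.955% of macrophages and 0.0932% of T-like cells, at median depths of 6119 and 3299 UMIs. Osm was also highest by mean in the mast cell or basophil-like class, at 314 ± 440 CPM (SD, n = 3), with 175 ± 106 CPM in neutrophil-like cells and 69.2 ± 56.3 CPM in macrophages (n = 6 each). Neutrophil-like cells had more Osm than the pooled other classes (2.19, SE 0.44, edgeR adjusted p = 0.0001723, where 15.2% of genes were higher), whereas the mast cell or basophil-like class did not pass for Osm (1.53, SE 0.63, edgeR adjusted p = 0.1125).

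The spread of that class came from 1 library, old control, which held 91 of the 108 Il6 UMIs and 72 of the 81 Osm UMIs of the class in 31 cells. The class contains cells with the basophil protease gene Mcpt8 and cells with the mast cell protease genes Mcpt4, Cma1 or Tpsb2. A split by these genes, made after seeing the values, separated the cytokines from the receptor among cells with genes of 1 kind only. In old control, the 13 cells with Mcpt8 and no mast cell protease held 71 Il6 UMIs (in 11 cells) and 62 Osm UMIs (in 13 cells), against 1 Il6 UMI and 1 Osm UMI in the 11 cells with a mast cell protease and no Mcpt8. Relative to total UMIs, Il6 was 30.4-fold higher in the Mcpt8 cells (interval 5.29 to 1219) and Osm was 26.6-fold higher (4.597 to 1067). Il10ra ran the other way, with 3 UMIs in the Mcpt8 cells and 8 in the mast cell protease cells (ratio 0.161, interval 0.0275 to 0.670). Outside this split, 6 cells of old control with none of these genes held 16 Il6 UMIs (in 4 cells) and 9 Osm UMIs. In the 1 cell with both kinds there were 3 Il6 UMIs. Over all libraries, 84 mast cell protease cells held 3 Il6 and 7 Osm UMIs but 46 Il10ra UMIs. Because 13 of the 16 Mcpt8 cells came from 1 library, no comparison of ages or treatments was possible for them.

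**Figure D3:**
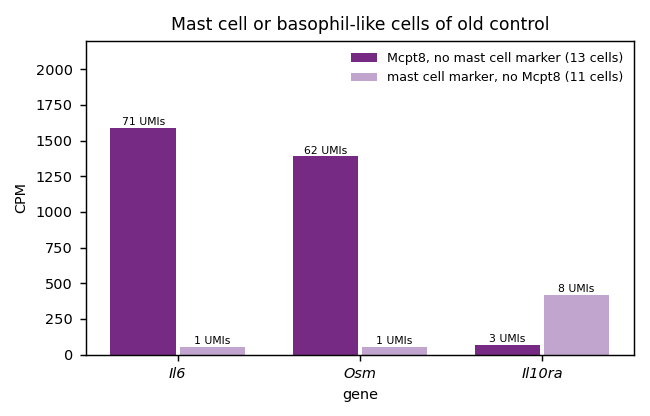
CPM of Il6, Osm and Il10ra in mast cell or basophil-like cells of old control, split into cells with Mcpt8 and no mast cell protease (dark) and the reverse (light), with UMI counts above the bars. Il6 and Osm had 71 and 62 UMIs in the Mcpt8 cells, against 1 UMI each in the mast cell protease cells. Cells with neither or both kinds of gene are not drawn.

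In macrophages Osm followed the treatment order of Il10. It was at 70.0 CPM in old control (191 UMIs) and 50.8 CPM in young control (251 UMIs). In HU libraries it was at 20.1 CPM in old (62 UMIs) and 5.84 CPM in young macrophages (13 UMIs), and in reload libraries at 117 CPM in old (1146 UMIs) and 151.5 CPM in young macrophages (1877 UMIs). Osm was higher in reload than in HU by 3.46 on the log2 scale (SE 0.52, edgeR adjusted p = 0.0371). After thinning, Osm was found in 13.21% of macrophages in old reload and 18.48% in young reload, against 2.602% in old HU and 0.6061% in young HU. In B-like cells, which should lack it, it was found in 1 of 255 (0.3922%), and the unthinned shares over all libraries were 29.54% in macrophages and 0.6645% in B-like cells at median depths of 6119 and 2411 UMIs. Neutrophil-like cells did not show the difference, at 109 CPM in old and 349 CPM in young reload against 89.0 CPM in old and 266 CPM in young HU (log2 -0.06, SE 0.48, edgeR adjusted p = 0.9682); a test of the difference between the classes was not run.

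Il6 in macrophages did not follow either ligand. It was at 26.0 CPM in old control and 27.9 CPM in young control, 54.2 CPM in old HU (167 UMIs) and 5.39 CPM in young HU (12 UMIs), and 38.2 CPM in old reload and 26.7 CPM in young reload. The highest and the lowest library were thus the 2 ages of HU. Reload and HU did not differ beyond the spread (0.33, SE 0.71, edgeR adjusted p = 0.779), and the sign of this difference depended on the HU library used (2.60 without old HU and -0.69 without young HU). The 1% of macrophages richest in Il6 held 34.58% of its UMIs in the class, and the highest cell had 30.

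Receptor chains of the IL-6 family separated the ligand-specific chain from the shared one. Il6ra was a gene of myeloid cells, with 125 ± 21.4 CPM in monocyte-like (SD, n = 5), 96.6 ± 26.8 CPM in neutrophil-like and 96.4 ± 15.7 CPM in macrophages (n = 6 each). Monocyte-like cells were above neutrophil-like cells in 5 of 5 libraries, by 0.24 ± 0.07 on the log2(CPM + 5) scale (SD; exact sign-flip p = 0.0625, the smallest that 5 libraries allow). Neutrophil-like cells and macrophages did not differ beyond their spread (-0.03 ± 0.55, exact sign-flip p = 0.9062). Macrophages were above dendritic cell-like cells (66.2 ± 16.7 CPM) in 6 of 6 libraries by 0.53 ± 0.31 on the log2(CPM + 5) scale (SD, exact sign-flip p = 0.03125, the smallest that 6 libraries allow). Over all members, 3 of 16 neighbouring pairs with 6 libraries went the same way in all of them. Neighbours were taken from the order of mean CPM in these same data, and their p-values are not adjusted. Il6ra had 0 UMIs in 254 NK-like cells and 7 in 523 type 2 innate lymphoid cell-like cells. After thinning, 13.95% of macrophages and 0 of 241 NK-like cells (up to 1.245%) had an Il6ra UMI. Il6st, which encodes gp130, had its highest means outside leukocytes, 112 ± 45.8 CPM in fibroblast-like and 73.0 ± 1.4 CPM in endothelial-like cells (n = 2 each), against 42.0 ± 12.4 CPM in macrophages (n = 6). Against pooled other classes Il6st was higher in fibroblast-like (1.36, SE 0.31, edgeR adjusted p = 0.005184) and endothelial-like cells (0.84, SE 0.29, edgeR adjusted p = 0.03719, where 15.1% of genes were higher). These tests rest on the 2 HU libraries, which alone held 20 or more cells of either class.

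Among other receptors of the family, Osmr, the oncostatin M receptor chain, had 0 UMIs in macrophages of all 6 libraries, where a count of 3 would be 0.242 to 1.35 CPM. It was at 60.6 CPM in old HU and 34.1 CPM in young HU endothelial-like cells (32 and 30 UMIs), and at 36.02 CPM in old HU and 33.6 CPM in young HU fibroblast-like cells. Osmr was higher than in the pooled other classes in endothelial-like (3.96, SE 0.50, edgeR adjusted p = 4.444e-05) and fibroblast-like cells (2.05, SE 0.52, edgeR adjusted p = 0.01023). Lifr, the receptor chain for leukaemia inhibitory factor, was in contrast higher in macrophages (1.99, SE 0.19, edgeR adjusted p = 0.0001091), at 39.9 to 89.5 CPM. Il11ra1, the IL-11 receptor, was at 376 CPM in old HU and 372 CPM in young HU fibroblast-like cells. Of the other ligands Lif was higher in type 2 innate lymphoid cell-like cells (4.69, SE 0.41, edgeR adjusted p = 4.754e-15), at 60.2 CPM in old and 39.8 CPM in young control, and had 0 UMIs there in young HU, where 3 counts would be 38.3 CPM.

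In macrophages neither Il6ra nor Il6st was called between reload and HU. Il6ra was at 105 CPM in old control and 85.8 CPM in young control, 112.5 CPM in old HU and 114 CPM in young HU, and 83.2 CPM in old reload and 78.4 CPM in young reload. The difference of reload from HU did not pass (-0.44, SE 0.19, edgeR adjusted p = 0.1729). Il6st ranged from 24.7 CPM in young HU to 59.4 CPM in old control and did not pass either (0.26, SE 0.24, edgeR adjusted p = 0.4939). Macrophages without resident genes had less Il6st than those with at least 2, 35.6 against 47.5 CPM, in 6 of 6 libraries (exact sign-flip p = 0.03125, the smallest possible, and 0.2812 adjusted over the 9 members).

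Stat3, through which both receptors signal, was present in every class. NK-like cells had the highest mean, 761 CPM over the 2 control libraries with at least 20 such cells (538 CPM in old and 984 CPM in young control), and were higher than the pooled other classes (1.07, SE 0.18, edgeR adjusted p = 3.389e-08, where 8.92% of genes were higher). In macrophages Stat3 was at 317 CPM in old and 304 CPM in young control, 189 CPM in old HU and 61.5 CPM in young HU, and 226 CPM in old and 211 CPM in young reload. The difference of reload from HU was 0.95 (SE 0.46, edgeR adjusted p = 0.2219), and without old HU it was 1.95 (edgeR adjusted p = 0.00462). Young HU had the lowest Stat3 in 5 of the 5 classes that had 20 cells in all libraries: macrophages, dendritic cell-like, neutrophil-like, T-like and type 2 innate lymphoid cell-like cells. Counts were small in some of these: young HU had 12 Stat3 UMIs in dendritic cell-like and 7 in T-like cells. Lowest in young HU in all 5 classes were 0.825% of 9699 genes with at least 200 UMIs and no other member. Young HU was also the library with the fewest total UMIs, but the median per kept cell was 2548 in young HU and 2539 in old HU. The part of depth in this Stat3 value was not tested beyond the thinning. In thinned macrophages, at equal depth, Stat3 was found in 23.23% of cells of old HU and 7.273% of young HU.

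Socs3, the feedback inhibitor, was a transcript of fibroblast-like (871 ± 158 CPM, n = 2), endothelial-like (520 ± 338 CPM, n = 2) and macrophage cells (435 ± 103 CPM, SD, n = 6), and was low in type 2 innate lymphoid cell-like cells (25.9 CPM). The first 2 means rest on the HU libraries alone, and endothelial-like cells were above macrophages in 1 of these 2 libraries. The clearest difference of Socs3 between treatments was in dendritic cell-like cells, the antigen-presenting class. There Socs3 was at 70.7 CPM in old reload (90 UMIs) and 73.5 CPM in young reload (192 UMIs), against 475 CPM in old HU (145 UMIs) and 594 CPM in young HU (104 UMIs). Old control had 220 CPM and young control 164 CPM. Socs3 was lower in reload by a log2 difference of -3.04 (SE 0.25, edgeR adjusted p = 0.000464), the only member called in these cells, where 2.78% of the 5641 genes tested were called lower. This comparison was added after seeing the data. The call remained with either reload or HU library left out (-2.81 to -3.24, edgeR adjusted p = 4.12e-06 to 0.025).

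The same direction was seen in neutrophil-like cells, at 145 CPM in old and 166 CPM in young reload against 356 CPM in old and 365 CPM in young HU, 10 UMIs in young reload and no call (-1.53, SE 0.34, edgeR adjusted p = 0.0861, where 0.876% of genes were called lower). It passed without either control library (edgeR adjusted p = 0.00802 without young control and 0.00466 without old control). In macrophages Socs3 was at 337 CPM in old and 389 CPM in young reload. In HU macrophages it was at 538 CPM in old and 532 CPM in young, with no call between the treatments (-0.51, SE 0.25, edgeR adjusted p = 0.2298). In T-like cells the ages differed in direction, at 88.0 CPM in old and 172 CPM in young reload against 242.5 CPM in old and 58.2 CPM in young HU, the last from 5 UMIs. Genes that rise when tissue is dissociated moved in the direction of Socs3 in dendritic cell-like cells, neutrophil-like cells and macrophages, but not in young T-like cells. In dendritic cell-like cells the 15 genes of that list summed to 5263 CPM in old and 5160 CPM in young reload, against 11440 CPM in old and 12520 CPM in young HU, with none at 0. In these cells 9 of the 15 were called lower and 1 higher (median -1.59), where 2.78% of genes were called lower and 1.49% higher. In macrophages they summed to 9236 and 9244 CPM in old and young reload, against 14150 and 13760 CPM in old and young HU, and 3 of the 15 (Jun, Egr1 and Ier2) were called lower, where 2.83% of genes were. In neutrophil-like cells they summed to 8670 and 10470 CPM in old and young reload, against 14190 and 22070 CPM in old and young HU. Of the 15, 5 were called lower there (median -1.35), where 0.876% of genes were. In young T-like cells the list summed to 7251 CPM in reload against 16880 CPM in HU, while Socs3 was higher in reload there. The part of these genes in the Socs3 differences was not tested.

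**Figure D4:**
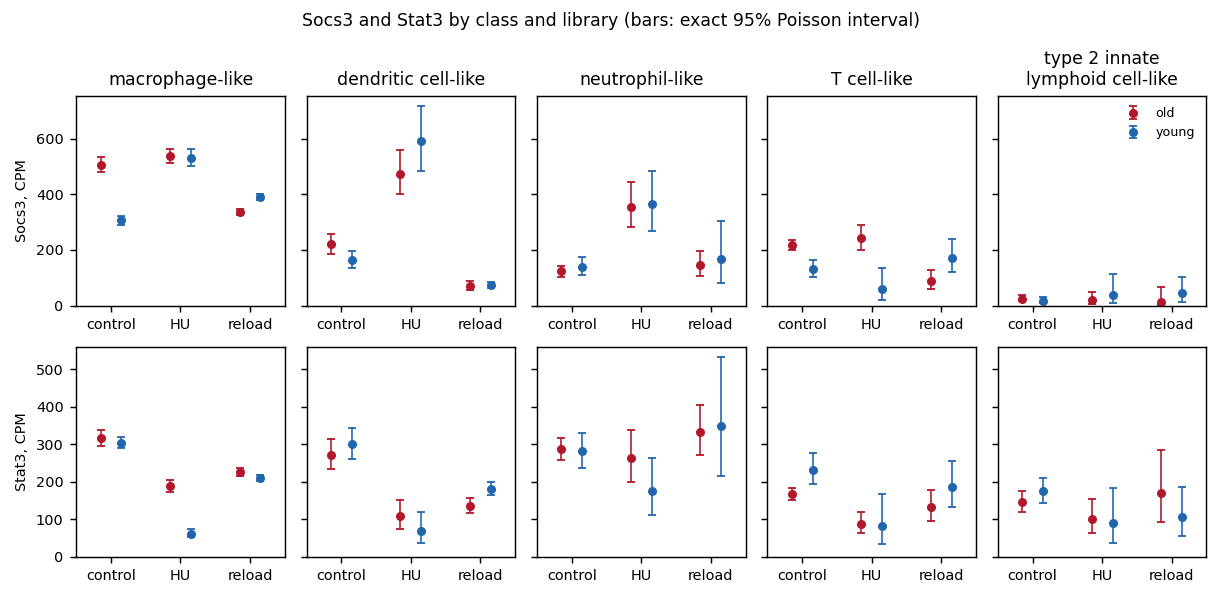
Socs3 (top) and Stat3 (bottom) in CPM by treatment in the 5 classes with at least 20 cells in all 6 libraries, old in red and young in blue, with exact 95% Poisson intervals. Socs3 in dendritic cell-like cells is at 70.7 and 73.5 CPM in reload, against 475 and 594 CPM in HU (old, then young), and Stat3 is lowest in young HU in every panel.

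Age was first tested over the 3 treatments in macrophages. No gene of 10162 passed (0%), with 437 at an unadjusted p under 0.05 and 10 called by DESeq2, and none of the 9 members did. The largest fitted difference was that of Il6 (0.95, SE 0.59, edgeR adjusted p = 0.9035). No member passed for age in dendritic cell-like, T-like or neutrophil-like cells (0%, 0% and 0.245% of genes called), the lowest edgeR adjusted p being 0.5844 for Osm in neutrophil-like cells. At unadjusted p, 181, 188 and 203 genes were under 0.05 there.

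Within each treatment the old over young ratio rests on 1 library each and has no replicate check. In HU macrophages 4 of the 8 members with 50 UMIs were past a log2 ratio of 0.58 upwards and 1 downwards, where 13.3% of genes were past it upwards and 18.5% downwards. The 4 were Il6 (3.33, interval 2.49 to 4.31), Osm (1.78, 0.91 to 2.77), Stat3 (1.62, 1.35 to 1.90) and Il6st (0.70, 0.23 to 1.19), and Il10rb was lower in old (-0.68, -0.92 to -0.44). Il10 had 33 UMIs in both HU libraries together. In control, Socs3 was higher in old (0.72, 0.62 to 0.83) and Il10 lower (-0.87, -1.26 to -0.50), 1 member each way, where 9.26% of genes were past the fold upwards and 5.91% downwards. In reload 0 of 9 members were past the fold, where 6.03% of genes were past it upwards and 3.15% downwards. Each member had its narrowest interval in reload, with Il6 at 0.52 (0.30 to 0.73), Osm at -0.37 (-0.48 to -0.26), Il10ra at -0.33 (-0.45 to -0.21) and Il10 at 0.19 (0.08 to 0.29). Leaving out depth scaling moved the median of all genes to -0.24 in control, 0.25 in HU and -0.20 in reload.

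**Figure D5:**
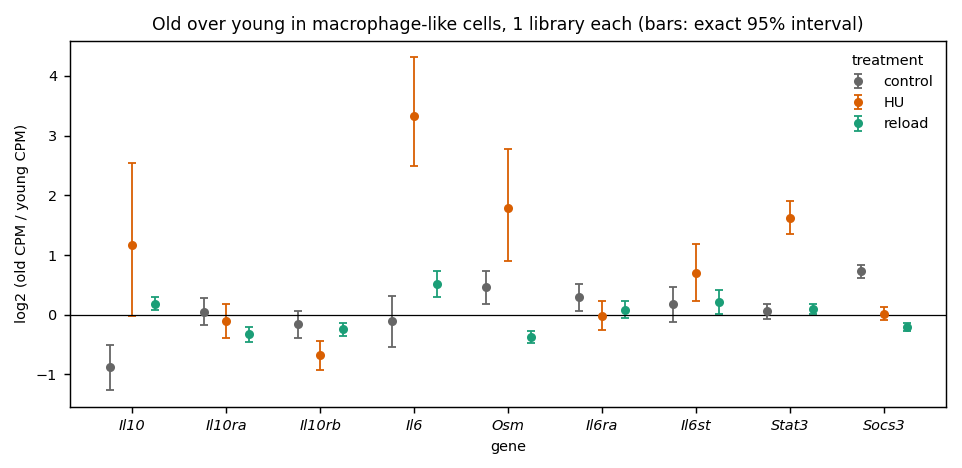
Log2 ratio of old over young CPM in macrophages for each member, by treatment, with exact 95% intervals for counting error and 1 library on each side of a ratio. HU (orange) has the widest range, from -0.68 for Il10rb to 3.33 for Il6, and reload (green) the narrowest.

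Outside macrophages at most 7 members in a class and treatment had enough UMIs for an age ratio. Only some of these ratios are given here. In monocyte-like cells 1 of 7 was past the fold upwards and 2 downwards in control, where 21.7% and 7.97% of genes were. Counts were the same in reload, where 8.11% and 11.7% of genes were. In neutrophil-like cells 1 member was past it each way in HU (23.8% and 11.4% of genes) and in reload (12.2% and 16.2%). Osm in neutrophil-like cells was at 109 CPM in old and 349 CPM in young reload (33 and 21 UMIs, log2 -1.68, interval -2.51 to -0.82) and at 89.0 CPM in old and 266 CPM in young HU (20 and 35 UMIs, -1.58, -2.45 to -0.75). In control, old had 116 CPM and young 122 CPM. The fit over the 3 treatments gave -1.02 (SE 0.38, edgeR adjusted p = 0.5844). In monocyte-like cells Il6ra was at 146 CPM in old and 93.3 CPM in young reload (0.65, 0.27 to 1.03) and Stat3 at 329 CPM in old and 549 CPM in young control (-0.74, -0.92 to -0.56).

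Genes downstream of the pathway gave calls in both directions in macrophages. Of 15 genes known to respond to IL-10 or STAT3, 1 was called higher and 2 lower in reload than in HU, where 2.51% of all genes were called higher and 2.83% lower. Their median log2 difference was 0.93, against 0.02 over all genes tested. The ages differed in the ratio of 1 reload to 1 HU library. In old macrophages 4 of the 15 were past a log2 ratio of 0.58 upwards and 3 downwards (median 0.34), where 19.9% of genes were past it upwards and 11.8% downwards. In young macrophages 12 were past it upwards and 3 downwards (median 1.67), where 24.1% of genes were past it upwards and 24.5% downwards. This difference between the ages was not tested. In the old over young ratio, 0 of the 15 were past the fold in reload, where 6.03% of genes were past it upwards and 3.15% downwards. In HU 9 of 14 were past it upwards and 1 downwards (median 1.39), where 13.3% and 18.5% of genes were. The list summed to 3145 CPM in young HU macrophages, the lowest library, and to 4649 CPM in old HU. The gene called higher in reload than in HU was Il21r (1.91, SE 0.27, edgeR adjusted p = 0.03597), which encodes the IL-21 receptor. The lower ones were Ddit4, a stress-induced inhibitor of mTORC1 (-3.31, SE 0.46, edgeR adjusted p = 0.03479), and Cebpd, a transcription factor of the acute phase (-1.70, SE 0.22, edgeR adjusted p = 0.0342). Ddit4 was at 16.5 CPM in old and 20.5 CPM in young reload, against 85.0 CPM in old and 369.5 CPM in young HU. The members of this list with most UMIs did not pass: Cebpb (0.82), Hmox1 (1.11), Mcl1 (1.18) and Pim1 (1.77), with edgeR adjusted p of 0.08573, 0.2008, 0.1169 and 0.1291. None of the 10 other negative regulators, 3 other ligands or 3 other receptors tested passed, and none of these lists had a gene called by age.

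Over 48 sums of a class in a library, which share libraries and depth, the genes whose log2(CPM + 5) followed Il10 most closely were Tmem171 (Pearson r = 0.828), Gm15247 (0.807) and Abcc3 (0.806), among 9588 genes with at least 200 UMIs. For Osm they were Cebpb (0.819), Lilr4b (0.811) and Gla (0.811). For Il6ra they were Lyz2 (0.845), Cd14 (0.832) and Tlr2 (0.827), and for Socs3 they were Dstn (0.784), Selenop (0.768) and Gfra2 (0.736). These are descriptions with no test.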

How the data were processed

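Single-cell suspensions were profiled with a droplet 3′ assay, and the authors deposited raw UMI counts per gene and cell for each of the 6 libraries, made with Cell Ranger 3.1.0 on mm10 according to their notes, which also name Seurat. Each library is 1 pool of solei, and no age and treatment has a replicate pool. In the fits within a class, p-values measure departures from additive effects of age and treatment over the 6 libraries. In the class fit they measure how class differences vary between libraries. The 9 members and all gene lists were chosen with earlier results of these data known. Cells with at least 200 genes and at most 10% mitochondrial UMIs were kept. Doublets were marked by Scrublet score in scanpy 1.11.5, taking the top 0.8% per 1000 barcodes of each library (340 in all), so their number was set by this rate and not measured. UMI counts were summed per class and library where at least 20 cells were present. Sums were compared with edgeR 4.0.16 in R 4.3.3 (quasi-likelihood test, TMM scaling, filterByExpr, Benjamini-Hochberg adjustment, threshold 0.05). The class fit had library as a block, and the fit within a class had treatment and age, with 2 residual degrees of freedom. The planned age fit in monocyte-like cells was not run because a library held fewer than 20 of them. On simulated counts with a true log2 difference of 2, 96% of 200 changed genes were recovered for age (9742 genes), 87.5% for reload against HU (9742 genes) and 100% for the class contrast (1034 genes). False calls numbered 4, 2 and 8 in the same order. The simulation gave every gene a dispersion of 0.05 and the same age effect in every treatment. It checks the code and does not show how often true differences would be found in these data.

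Old over young ratios within a treatment were computed for genes with at least 50 UMIs in both libraries together, and 0.58 on the log2 scale was taken as the fold. Neighbouring classes and macrophage states were compared by exact two-sided sign-flip tests over libraries on log2(CPM + 5). The text names the 9 members, the 4 genes with most UMIs or any called gene of the other lists where a result turns on them, and the 3 genes most correlated with Il10, Osm, Il6ra and Socs3. UMIs of the 3′ assay do not allow levels of different genes to be compared, and intervals cover counting error only. Alternatives were DESeq2 1.42.0, no TMM scaling, no low-count filter, other cell filters, classes from clusters, thinning to 1500 UMIs and leaving out each library. The pooled class contrast, the tests of reload against HU in dendritic cell-like and neutrophil-like cells and the removal of shared barcodes were added after seeing the data. A result of the list of kinases and transcription factors is not reported here.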

Additional observations from a re-analysis of the deposited data

Results flagged for a closer look

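For some members the old over young ratio had opposite signs in different treatments, with counting intervals that did not include 0. Each ratio compares 1 library with 1 library, and the difference between treatments was not tested. In macrophages the log2 ratio of Il10 was -0.87 in control and 0.19 in reload. Osm was at 0.46 in control, 1.78 in HU and -0.37 in reload. Socs3 was at 0.72 in control and -0.21 in reload. In T-like cells Socs3 was at 0.74 in control, 2.06 in HU and -0.97 in reload. In monocyte-like cells Il10ra was at -0.31 in control and 0.44 in reload, and Socs3 at 1.45 in control and -0.90 in reload. Groups of 1 library could not be searched for libraries that stand apart from their own group.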

How the results depend on the processing

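No paired analysis was possible because each group is 1 library and the labels give no replicate numbers, beyond the age fit itself, which sets old against young within each treatment. Of the fits of single members, 315 kept direction and side of the threshold under alternatives other than leaving out a library, 4 changed sign, 3 lost and 3 gained a call. With a library left out, 156 did so, 10 changed sign, 2 lost and 6 gained a call. The changes of sign concern values that were not called. Stat3 in the first class contrast (0.31, edgeR adjusted p = 0.0644) passed with either other mitochondrial limit, after thinning (0.51) and without young HU or young reload. For age in macrophages, Il10 was at 0.025 with DESeq2, 0.046 with classes from clusters, 0.16 after thinning and -0.33 (without young HU) to 0.52 (without old control) with a library left out, and Il6ra was at -9.2e-05 after thinning. With a library left out, Socs3 ranged from -0.022 (without young control) to 0.41, Osm from -0.032 (without young HU) to 0.997, and Il10ra from -0.20 to 0.012 (without old reload). For reload against HU, Il6 ranged from -0.69 (without young HU) to 2.60 (without old HU, when it was called) and Il6st from -0.059 to 0.67 in the same order.

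Counts of called genes moved more. In the class contrast 2489 genes were called after thinning, against 4084, and the split into higher and lower was 2828 and 1124 without TMM and 2704 and 1632 with DESeq2, against 3361 and 723. Age in macrophages gave 10 genes with DESeq2, 14 without the filter and 0 to 9 with a library left out, against 0. Reload against HU in macrophages gave 832 with DESeq2, 980 without TMM, 1722 without the filter, 1028 with clusters, 340 after thinning and 0 to 1912 with a library left out, against 543. In dendritic cell-like cells it gave 152 with DESeq2, 91 with clusters, 61 after thinning and 25 to 554 with a library left out, against 241, with 151 higher and 127 lower without TMM, against 84 and 157, and in neutrophil-like cells 6 with clusters and 19 to 154 with a library left out, against 25. Age gave 4 to 19 genes with a library left out in dendritic cell-like cells (0 otherwise), 6 without TMM and 1 to 48 with a library left out in T-like cells (0 otherwise), and 15 without TMM and 25 to 76 with a library left out in neutrophil-like cells (7 otherwise). Genes past the fold between ages after thinning were 477 in control, against 1173, and 995 in HU, against 2156. Without depth scaling the higher and lower counts were 259 and 1359 in control (716 and 457 with it), 1939 and 397 in HU (900 and 1256) and 315 and 798 in reload (572 and 299). The cause of these shifts was not tested. Low counts limit Il10, Il6 and Osm in young HU, where macrophages held 8, 12 and 13 UMIs.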
